A study of Mus musculus with 7 samples.

Results

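In adult mouse liver, 706 distal sites were bound by CTCF and cohesin at a CTCF motif yet had no peak for the cohesin subunit Stag2. They are 4.7% of the 15008 distal motif CAC sites, CAC standing for cohesin-and-CTCF. The 706 sites were taken from a list of 52436 classed CTCF sites by their class, flags, motif and position. The classes themselves rest on CTCF and Rad21 peaks called in these libraries and on loops the authors predicted from such peaks, so CTCF and Rad21 strength had a part in them. They also rest on boundaries of topologically associating domains (TADs) from published liver Hi-C, used to pick TAD anchors and to filter the loops. Each of the 706 sites lies on chromosomes 1 to 19 and is classed as a CAC site that anchors neither a TAD nor a predicted loop inside one. Each also carries a scored CTCF motif, is flagged as lacking Stag2, and has its CTCF summit over 1 kb from every protein-coding transcription start. Of the 840 motif-bearing sites of this class without Stag2, 134 fell inside the 1-kb limit. The closest site left out had its summit 992 bp from a start and the closest site kept had it at 1012 bp. The libraries came from livers of male Crl:CD1(ICR) mice aged 8 weeks, untreated as far as the labels say, with 4 libraries for CTCF and 3 for Rad21. The authors merged the libraries of each factor, so each site has 1 pooled value per factor and no replicate spread. The Stag1, Stag2 and Top2b flags record overlap with peaks of other liver ChIP-seq experiments, not with these libraries, and the strain of the mice in those experiments was not checked here.

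CTCF is a zinc-finger protein that binds a long, directional DNA motif. Cohesin is a ring-shaped complex that extrudes loops of chromatin and is stopped by CTCF when it meets the motif from one side. Rad21 is the subunit that closes the ring, and every complex carries either Stag1 or Stag2, alternative subunits that touch DNA and CTCF. Top2b is a DNA topoisomerase that relieves torsion by passing one duplex through another and is often found beside CTCF and cohesin.

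Sequences of the sites with the most CTCF fragments show how varied their motifs were. The 5 sites with the most CTCF fragments at the summit are given here on the strand of the motif, from 5′ to 3′, with the 19-base motif in capitals and 20 bases on each side (mouse genome build NCBIM37, mm9). Each is named by the gene that holds it or, for the intergenic sites, by the gene of the nearest protein-coding start.
Srpk2 (chr5:23218596-23218654, - strand): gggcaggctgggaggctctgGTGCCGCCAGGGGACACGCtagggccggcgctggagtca
Fndc1 (chr17:8056763-8056821, + strand): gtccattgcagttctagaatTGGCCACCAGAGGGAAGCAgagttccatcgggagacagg
Tmem194 (chr10:127108480-127108538, + strand): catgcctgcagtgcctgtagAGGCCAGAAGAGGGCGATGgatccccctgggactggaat
Cdh24 (chr14:55255928-55255986, + strand): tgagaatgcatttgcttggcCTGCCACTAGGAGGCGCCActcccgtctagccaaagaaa
Best1 (chr19:10067677-10067735, + strand): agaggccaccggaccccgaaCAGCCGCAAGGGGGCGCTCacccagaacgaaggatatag
The first lies 36379 bp upstream of the start of Srpk2, a kinase of splicing factors. It had 600 CTCF fragments, the most of the 706, and 38 Rad21 fragments, just under the upper quartile of the class, 39. The second lies 36641 bp upstream of Fndc1 and had 595 CTCF and 134 Rad21 fragments and a Top2b peak. The other three lie in introns of Tmem194, of the cadherin gene Cdh24 and of the anion channel gene Best1, with 541, 513 and 475 CTCF fragments and 64, 61 and 99 Rad21 fragments. None of these 5 sites had Stag1. Their motif scores ran from 12.7 to 21.98, where the score is the log-odds match to the CTCF matrix, so a high fragment count did not need a high score among them. As fold over local background the ranking differed. CTCF at the Tmem194 site was 6.81-fold, below the class median of 8.006, and the others were above it. The highest CTCF fold of the class, 35.14, lay at none of these 5 sites.

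Most of the 706 sites had neither of the other 2 marks. No Stag1 and no Top2b peak was flagged at 526 sites, Stag1 only at 135, Top2b only at 38, and both at 7. Stag1 was thus present at 142 of 706 sites, 20.1% (95% Wilson interval 17.3 to 23.2%), against 86.9% of the 14302 distal motif CAC sites with Stag2, a difference of −66.8 percentage points (95% Newcombe interval −69.6 to −63.6) with the same sign on 19 of 19 chromosomes. Over all 52436 classed sites the flags were set at 70.6% for Stag1, 88.1% for Stag2 and 54.8% for Top2b. Within bins of Rad21 fragments the difference in Stag1 was −54.2 points. Intervals cover counting error only, and sites are not replicates of a condition.

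The 706 sites were weakly bound by both factors. CTCF fragments at the summit ranged from 34 to 600 with a median of 76 and quartiles of 53 and 128.5, compared with a median of 152 at the 12430 distal motif CAC sites with both Stag1 and Stag2. Rad21 fragments ranged from 16 to 613 with a median of 28 and quartiles of 23 and 39, compared with a median of 60. The ranges of the classes overlapped, but a site lacking Stag2 exceeded one with both subunits with probability 0.282 for CTCF (two-sided Kolmogorov-Smirnov test across sites, n = 706 and 12430, Benjamini-Hochberg adjusted p = 9.22e-63) and 0.177 for Rad21 (adjusted p = 2.76e-161). Both were lower on 19 of 19 chromosomes. Within bins of CTCF fragments the probability for Rad21 was still 0.233, whereas within bins of Rad21 fragments that for CTCF was 0.459. The median Rad21 count per CTCF fragment was 0.3942 at sites lacking Stag2 and 0.4539 at sites with both subunits (n = 706 and 12430, adjusted p = 5.96e-14). These ratios are not scaled for the depth of the pooled libraries.

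Compared with the 1872 sites that had Stag2 but no Stag1, the sites lacking Stag2 had fewer Rad21 fragments. The median CTCF count was 76 against 84, and a site lacking Stag2 exceeded one with Stag2 only with probability 0.468 (n = 706 and 1872, adjusted p = 0.0526). That p fell to 0.0187 without chromosome 5, the chromosome with the most members, and to 0.0133 at sites with no other classed summit within 1 kb. The median Rad21 count was 28 against 34, with probability 0.404 (n = 706 and 1872, adjusted p = 1.68e-11, lower on 17 of 19 chromosomes). As fold over local background the Rad21 difference was smaller, with probability 0.453 (n = 706 and 1872, adjusted p = 0.000449), and that for CTCF was 0.48 (n = 706 and 1872, adjusted p = 0.276). The plot of cumulative shares shows the wide gap to sites with both subunits and the narrow one to sites with Stag2 only.

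**Figure D1:**
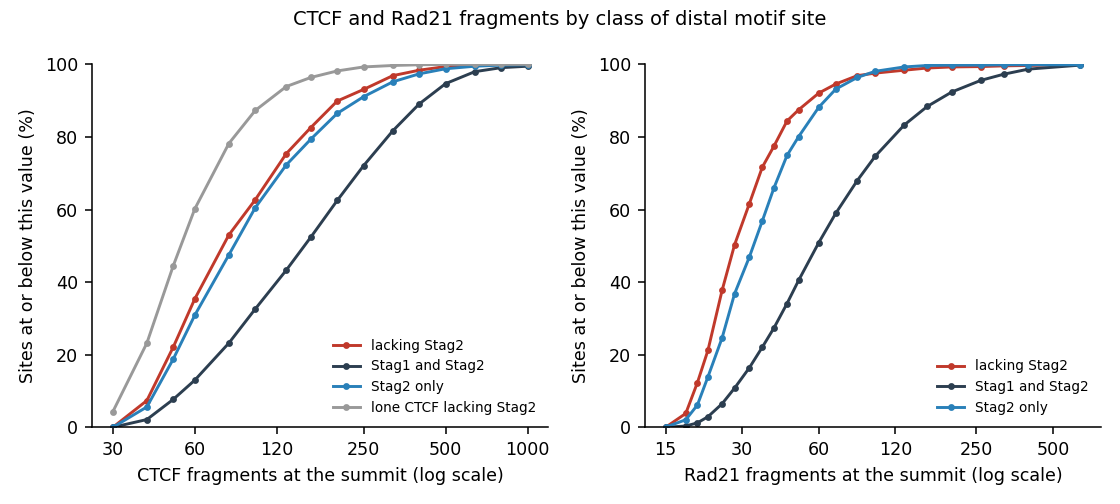
Cumulative percentage of sites (vertical axis) at or below each number of CTCF (left) or Rad21 (right) fragments at the summit (horizontal axes, log scale), for 4 classes of distal motif site on the left and, without the lone CTCF sites, 3 on the right. The curve of the 706 sites lacking Stag2 (median 76 CTCF and 28 Rad21 fragments) lies to the left of that of sites with Stag1 and Stag2 (152 and 60) in both panels and close to that of sites with Stag2 only (84 and 34).

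At the other end, the sites lacking Stag2 were stronger than lone CTCF sites. The 3239 distal motif sites with CTCF, no Rad21 peak and no Stag2 had a median of 54 CTCF fragments, and a CAC site lacking Stag2 exceeded such a site with probability 0.693 (n = 706 and 3239, adjusted p = 1.7e-37, higher on 19 of 19 chromosomes). Stag1 was flagged at 6.58% of the lone sites, 13.5 points below the CAC sites lacking Stag2 (interval of the difference 10.6 to 16.8). The lowest CTCF score was 130 at the CAC sites lacking Stag2 and 38 at the lone sites, so the classes did not start from the same floor. With a CTCF score of at least 200 asked of both classes, the probability was 0.647.

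The share of distal motif CAC sites without Stag2 fell steeply with peak strength. It was 24.6% (20.4 to 29.3%) among the 354 sites with up to 20 Rad21 fragments, 12.2% between 20 and 30, 6.62% between 30 and 40, 2.99% between 40 and 60 and 0.533% between 100 and 200. Across CTCF fragments the fall was slower, from 12.3% (9.5 to 15.8%) at up to 40 fragments to 4.96% between 80 and 120 and 0.781% above 400. Stag1 was missing along the same gradient, from 53.4% of sites with up to 20 Rad21 fragments to 0.944% above 200. How far a weak peak escaped the peak calling of the Stag2 experiment was not tested.

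**Figure D2:**
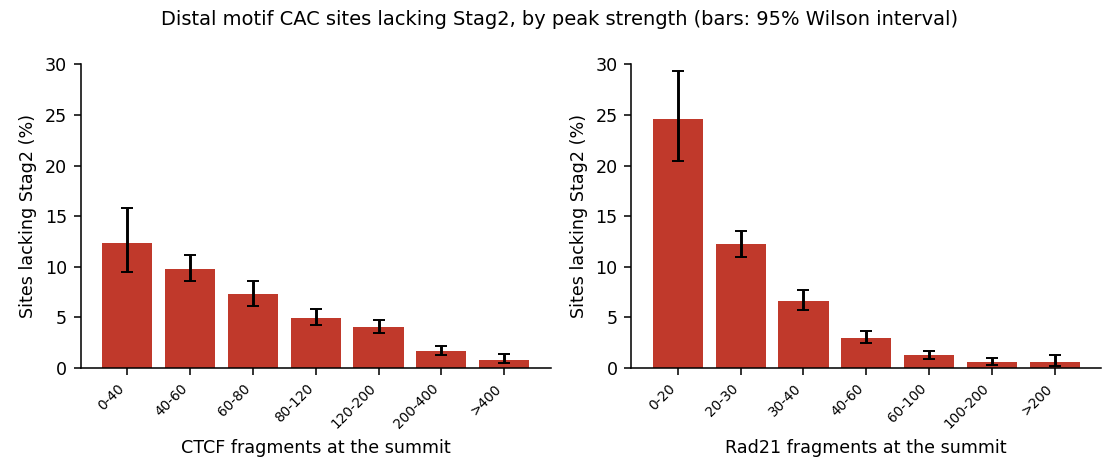
Percentage of the 15008 distal motif CAC sites lacking Stag2 (vertical axes) in 7 bins of CTCF (left) and of Rad21 (right) fragments at the summit, with 95% Wilson intervals. The share falls from 12.3% to 0.781% across CTCF bins and from 24.6% to 0.525% across Rad21 bins.

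Top2b was scarce at these sites. It was flagged at 45 of 706, 6.37% (4.8 to 8.42%), against 53.8% of sites with both subunits, a difference of −47.5 points (−49.3 to −45.2, the same sign on 19 of 19 chromosomes), and against 22.1% of sites with Stag2 only, a difference of −15.7 points (−18.2 to −13, lower on 18 of 19 chromosomes). At lone CTCF sites lacking Stag2 the share was 0.834%, 5.54 points lower than at the CAC sites (3.92 to 7.61). Within bins of Rad21 fragments the differences were −22.1 points (−24.4 to −19.8) to sites with both subunits and −12.1 points (−14.7 to −9.56) to sites with Stag2 only. Between 24 and 34 Rad21 fragments, where the 3 classes had median CTCF counts of 72.5, 78 and 76, Top2b was flagged at 4.72% of sites lacking Stag2, 21.5% with both subunits and 14.6% with Stag2 only. Above 80 Rad21 fragments Top2b was flagged at 13 of the 26 sites lacking Stag2 (32.1 to 67.9%), at 82.3% with both subunits and at 32.5% with Stag2 only (23.4 to 43.2%), so the order of the first and last could not be told. Top2b was flagged at 7 of 142 sites with Stag1 and 38 of 564 without, a difference of −1.81 points (−5.27 to 3.4).

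**Figure D3:**
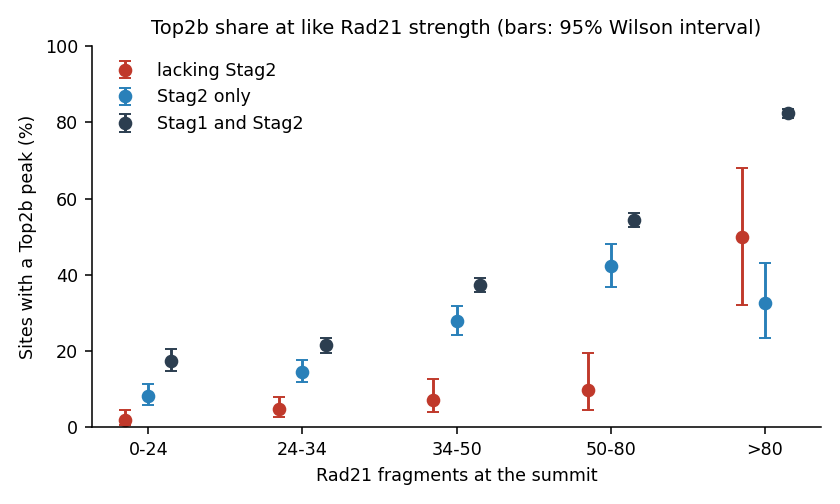
Percentage of sites with a Top2b peak (vertical axis) in 5 bins of Rad21 fragments at the summit (horizontal axis), with 95% Wilson intervals, for sites lacking Stag2, with Stag2 only and with Stag1 and Stag2. In the first 4 bins the sites lacking Stag2 lie lowest, at 1.79 to 9.68%, and above 80 fragments they reach 50%.

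The 45 sites with Top2b stood higher in both factors, with medians of 162 CTCF and 43 Rad21 fragments against 74 and 28 at the 661 without it. As fold over local background the gaps were narrower, with medians of 8.723 against 7.986 for CTCF and 4.655 against 3.897 for Rad21. The median local background of CTCF was 14.12 at sites with Top2b and 7.234 without it. The ranges of the 2 groups overlapped. Among sites with Top2b only, the strongest in CTCF were the Fndc1 site above, a site 19340 bp upstream of Disc1 with 467 CTCF fragments and a Rad21 peak 14.5-fold over its local background, and a site in an intron of Ccdc43 with 404 CTCF and 25 Rad21 fragments. The strongest of the 7 sites with both Stag1 and Top2b lay in an intron of the homeobox gene Pknox2 (280 CTCF and 35 Rad21 fragments), 229979 bp downstream of the start of the manganese transporter gene Slc30a10 (269 and 35) and 16544 bp upstream of Stam2 (189 and 39). With Stag1 only, the strongest lay upstream of Abhd2 (397 and 37), in an intron of the myosin gene Myo18a (379 and 57) and upstream of the phosphatase gene Sacm1l (312 and 36). These last 6 sites had 35 to 57 Rad21 fragments, all above the median of 28. As fold over local background they fell on both sides of the class median of 3.915. The Pknox2 (4.15) and Abhd2 (6.2) sites lay above it, and the Slc30a10 (3.08), Stam2 (2.95), Myo18a (2.44) and Sacm1l (3.42) sites below it.

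**Figure D4:**
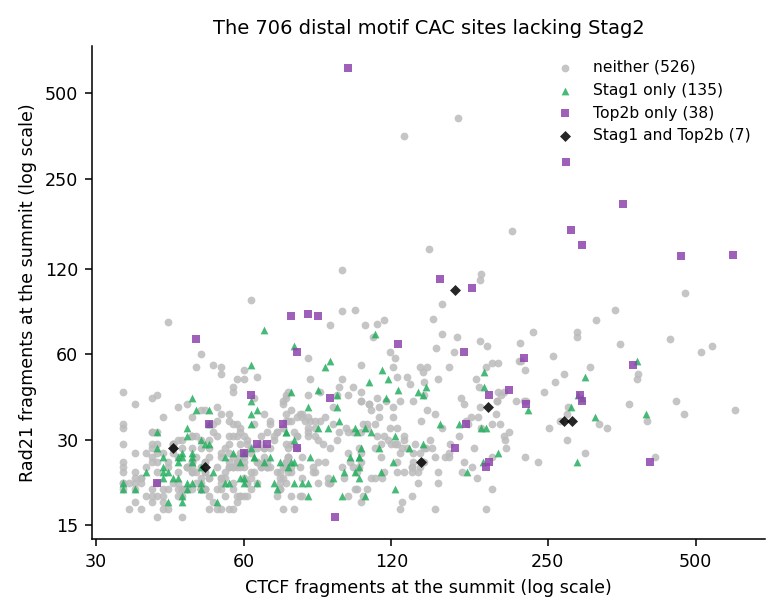
CTCF fragments (horizontal axis) against Rad21 fragments (vertical axis) at the summit for each of the 706 sites, both on log scales, with the symbol giving the Stag1 and Top2b flags. Most points lie below 128.5 CTCF and 39 Rad21 fragments. The highest Rad21 point, at 613 fragments, has Top2b, and the next 2, at 411 and 353, do not.

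The highest Rad21 values came mostly from peaks whose summit was not at the site. The largest, 613 fragments, belonged to a Rad21 peak overlapping a site of 98 CTCF fragments near the class I histocompatibility gene H2-D1, with the Rad21 summit 566 bp away and a loop anchor 572 bp away. A coding-exon site in the homeobox gene Pitx3 had 411 Rad21 and 164 CTCF fragments, an intron site in the tetraspanin gene Tspan4 had 353 and 127, and a site upstream of Eif1 had 286 and 272. Their Rad21 summits lay 1002, 616 and 483 bp from the CTCF summit, and each had another classed site 533 to 868 bp away with 488 to 581 CTCF fragments. Only the fifth, a second site upstream of Fndc1 at chr17:8061444-8061875 with 203 Rad21 and 356 CTCF fragments, had the summits 6 bp apart. Another classed summit lay within 1 kb of 60 sites, 8.5%, against 4.14% of sites with both subunits (difference 4.36 points, 2.48 to 6.67) and 5.98% with Stag2 only (2.52 points, 0.337 to 5.01). Of those 60 neighbours, 50 had Stag2 (83.3%), close to the 84.5% and 88.4% among such neighbours of sites with both subunits and with Stag2 only. TAD or intra-TAD anchors made up 21 of the 60 (35%, 24.2 to 47.6%), against 19.8% (16.6 to 23.5%) and 19.6% (13.3 to 28%). The neighbour had more CTCF fragments than the site itself in 42 cases (70%, 57.5 to 80.1%), against 41% (36.8 to 45.3%) and 56.2% (47 to 65.1%). In both shares the interval of sites lacking Stag2 overlapped that of sites with Stag2 only. At any distance, the nearest classed site had more CTCF fragments for 64.9% of sites lacking Stag2, 43.9% with both subunits and 63.2% with Stag2 only. A stronger neighbour was thus not particular to crowded sites. Counting only Rad21 summits within 100 bp, the probability of exceeding a site with both subunits was 0.168 in place of 0.177.

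At the low end, 3 sites had 16 Rad21 fragments each. They lay upstream of Rbm44, downstream of the start of the acetylcholine receptor gene Chrna1 and in an intron of the centrosomal gene Nin, with 45, 92 and 40 CTCF fragments. Their motif scores of 19.93, 18.26 and 20.36 were above the median of the class, 15.75.

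The Rad21 summit lay on the 3′ side of the CTCF summit, along the motif, at 426 of the sites lacking Stag2 (60.3%), against 69% of sites with both subunits and 58.3% with Stag2 only. The Rad21 summit was displaced from the CTCF summit by a median of 14 bp towards the 3′ end of the motif (95% interval of the median 8 to 17 bp, quartiles −20.75 and 47 bp), with a positive median on 15 of 19 chromosomes. At sites with both subunits it was 17 bp, and the quartiles were −5 and 40 bp, and at sites with Stag2 only it was 11 bp (8 to 14 bp). From the centre of the motif itself, the Rad21 summit of sites lacking Stag2 lay at a median of 13.5 bp, with quartiles of −26.75 and 51 bp. Without regard to direction, the summits lay a median of 35 bp apart at sites lacking Stag2, 27 bp at sites with both subunits (n = 706 and 12430, adjusted p = 9.11e-14, wider on 19 of 19 chromosomes) and 39 bp at sites with Stag2 only (adjusted p = 0.466). The Rad21 summit was within 100 bp at 83.7% of sites lacking Stag2, 94.5% with both subunits and 82.5% with Stag2 only. The difference from sites with both subunits was −10.8 points (−13.7 to −8.24), and it was −7.98 points (−10.9 to −5.06) within bins of Rad21 fragments and −7.01 (−9.89 to −4.14) within bins of CTCF fragments. Within bins of CTCF fragments the distance between summits exceeded that of a site with both subunits with probability 0.542 (n = 706, adjusted p = 0.000439), and was smaller than at sites with Stag2 only (probability 0.471, n = 706, adjusted p = 0.0493). CTCF peaks were also narrower than at sites with both subunits, with median widths of 393 and 446 bp (n = 706 and 12430, probability 0.338, adjusted p = 5.94e-37), a difference that was smaller within bins of CTCF fragments (probability 0.443, n = 706, adjusted p = 9.3e-07).

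Motif scores lay close together in the 4 classes, while the bases of the motifs differed. The median motif score was 15.75, against 16.03 at sites with both subunits (n = 706 and 12430, probability 0.478, adjusted p = 0.0954), 15.15 with Stag2 only (0.538, adjusted p = 0.00435) and 15.67 at lone CTCF sites (0.496, adjusted p = 0.418). The call against Stag2 only was lost at sites with CTCF scores of at least 200 and Rad21 scores of at least 50 (probability 0.528). At like CTCF strength the order to sites with both subunits turned around, and a site lacking Stag2 then had the higher score with probability 0.563 (n = 706, adjusted p = 1.64e-07). The highest scores were 24.89 upstream of Sez6l, 24.87 upstream of Disc1 and 24.2 upstream of the urotensin gene Uts2, with 151, 273 and 126 CTCF fragments. The lowest, 7.77 in an intron of the kinase scaffold gene Ksr2, 7.82 downstream of the start of Nrf1 and 7.852 in an intron of Ccdc148, went with 116, 455 and 38 fragments.

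Base by base, the sites lacking Stag2 stood between sites with both subunits and lone CTCF sites at several motif positions, counted from 1 at the 5′ end. T at position 17 was found at 29.9% of sites lacking Stag2, 14.7% with both subunits, 22.3% with Stag2 only and 37.9% of lone sites. T at position 12 was found at 17.8%, 32.6%, 19.6% and 11.9% in the same order, A at position 8 at 44.5%, 30.6%, 37.8% and 56.9%, and G at position 7 at 61.6%, 49.9%, 61.4% and 72.2%. These were among the largest gaps of all base-by-position shares and were picked for that, so they carry no test. A CpG at positions 15 and 16, where cytosine methylation can hinder CTCF, was present at 33.3% of sites lacking Stag2, 24.6% with both subunits (difference 8.66 points, 5.2 to 12.3, higher on 18 of 19 chromosomes), 29.3% with Stag2 only and 32.2% of lone sites. This comparison was added after values had been seen. CpG counts over the 201 bases at the summit had a median of 2 in both CAC classes (n = 706 and 12430, adjusted p = 0.714, and 5.99e-05 at like CTCF strength with probability 0.546), whereas counts within the 19-base motif, an alternative added later, differed without regard to strength (probability 0.543, n = 706 and 12430, adjusted p = 0.000179).

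Of the cores of these motifs, 1 recurred most often. The 12 bases CCAGAAGAGGGC filled motif positions 4 to 15 at 173 of the 706 sites, 24.5%, and were the commonest core in each of the 4 classes, at 10.8% of sites with both subunits, 20.6% with Stag2 only, 38% of lone sites and 12.1% of all 42307 classed motif sites on chromosomes 1 to 19. The next core among sites lacking Stag2, CCAGCAGAGGGC, was found at 17 of them. The core was chosen for its frequency, and its shares are given as a description. Over 4 bins of CTCF fragments from up to 50 to above 130, its share at sites lacking Stag2 was 31.4%, 27.1%, 22.8% and 16.7%. It was 9.82%, 12.4%, 13.5% and 9.5% at sites with both subunits, 19.6%, 23.8%, 21.6% and 17.2% with Stag2 only, and 39%, 38.5%, 37.8% and 28.9% at lone sites, so a lower share in the top bin than in the lowest was found at lone sites too, and in the top bin sites lacking Stag2 and with Stag2 only had overlapping intervals (11.9 to 22.9% and 14.2 to 20.7%). The 173 sites had medians of 67 CTCF and 26 Rad21 fragments, against 81 and 30 at the other 533, and Top2b was flagged at 2 of them, against 43 of the others. Leaving out the sites with the core in each class, A at position 8 was found at 26.5% of sites lacking Stag2 and 22.3% with both subunits and G at position 7 at 49.2% and 43.9%. The core itself fixes these 2 bases, so narrower gaps there follow from the way sites were left out. The core fixes position 12 as well, as G, so leaving it out removed no site with T there. The shares of T at position 12, now 23.6% and 36.5%, therefore only restate the gap given above. T at position 17, which lies outside the core, was found at 22.3% and 10.2%.

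**Figure D5:**
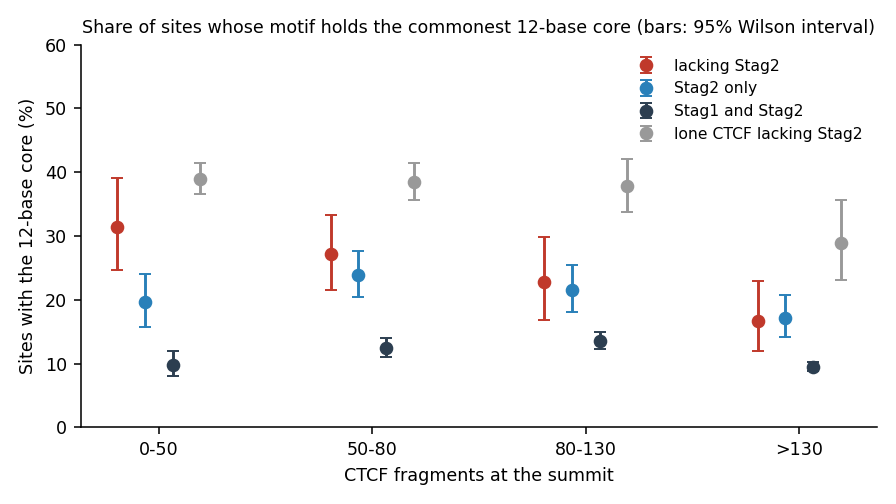
Percentage of sites whose motif holds the commonest 12-base core (vertical axis) in 4 bins of CTCF fragments at the summit (horizontal axis), with 95% Wilson intervals, for 4 classes of distal motif site. Sites lacking Stag2 run from 31.4% to 16.7%, between lone CTCF sites (39% to 28.9%) and sites with Stag1 and Stag2 (9.82% to 9.5%).

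Whole motifs recurred as well. The most frequent 19-base motif of the class, ACTCCAGAAGAGGGCGCCA, was found at 17 sites lacking Stag2 on 10 chromosomes (2.41%), at 5 of 12430 sites with both subunits (0.0402%), at 6 of 1872 with Stag2 only (0.321%) and at 101 of 3239 lone sites (3.12%). None of the 17 had Stag1 or Top2b, and their CTCF fragments ran from 41 to 381 with a median of 78. The 4 with the most CTCF fragments show that the likeness runs past the motif.
Tyr (chr7:94560111-94560169, - strand): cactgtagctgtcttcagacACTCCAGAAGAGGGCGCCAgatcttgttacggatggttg
Baz1a (chr12:56043965-56044023, + strand): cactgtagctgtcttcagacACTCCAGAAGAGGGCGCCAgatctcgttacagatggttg
Ccnl2 (chr4:155195316-155195374, + strand): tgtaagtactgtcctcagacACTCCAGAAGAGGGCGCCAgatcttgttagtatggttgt
Rad54b (chr4:11532274-11532332, + strand): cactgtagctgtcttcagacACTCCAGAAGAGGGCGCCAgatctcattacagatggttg
The first is intergenic, with the start of the tyrosinase gene Tyr nearest, and had 381 CTCF fragments. The others lie in introns of the chromatin remodelling gene Baz1a, of Ccnl2 and of the DNA repair gene Rad54b, with 127 to 137. Across the 17 sites the commonest base was shared, on average, by 91.5% of sites over the 20 bases before the motif and 87.4% over the 20 after it, whereas it was shared by 34.6% and 33% across the 533 members without the core. The motif has 458 exact copies on chromosomes 1 to 19, of which 247 (53.9%) lie in a CTCF peak of the pooled list and 25 in a Rad21 peak. Another motif, ACACCAGAAGAGGGCATCA, was found at 13 sites lacking Stag2, with 36 to 70 CTCF fragments, and has 11173 copies, of which 706 (6.32%) lie in a CTCF peak and 79 in a Rad21 peak. The motif AGGCCAGAAGAGGGCATCA was found at 165 sites with both subunits (1.33%) and 8 lacking Stag2 (1.13%), and 327 of its 1364 copies lie in a Rad21 peak. Many CTCF motifs of rodents lie in short interspersed elements. No repeat annotation was used here, and how unique mapping of reads bears on sites in repeated sequence was not tested.

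By location, the sites lacking Stag2 were shared out between genes and intergenic sequence, with no detectable difference in introns from sites with both subunits. Summits lay in introns at 330 sites (46.7%, 1.25 points from sites with both subunits, −2.51 to 5.04), in intergenic sequence at 338, in coding exons at 24, in UTR exons at 9 and in other exons at 5. The median distance to a protein-coding start was 22352 bp, against 24529.5 bp at sites with both subunits (n = 706 and 12430, adjusted p = 0.158, and 1.73e-05 at like CTCF strength with probability 0.449). With Stag2 only it was 17400.5 bp. Intergenic sequence held 47.9% (44.2 to 51.6%) of sites lacking Stag2 and 41.5% (39.2 to 43.7%) of sites with Stag2 only. These contrasts with Stag2 only were not tested. The sites lacking Stag2 lay closer to an anchor than sites with both subunits did, at a median of 37514.5 against 51625 bp (n = 706 and 12430, probability 0.447, adjusted p = 5.6e-05). The medians of sites with Stag2 only, 37231.5 bp, and of lone CTCF sites, 36154 bp, were near that of sites lacking Stag2, and those differences were not tested. Within the class, the 142 sites with Stag1 lay farther from both than the 564 without it, at medians of 32983.5 against 20922.5 bp from a start (n = 142 and 564, adjusted p = 0.00101) and 59604.5 against 35292.5 bp from an anchor (adjusted p = 0.00435), while CTCF, Rad21 and motif score did not pass the test between them (adjusted p = 0.418, 0.586 and 0.466). At sites with CTCF scores of at least 200 and Rad21 scores of at least 50, distance to an anchor no longer passed (probability 0.558), whereas CTCF did, lower with Stag1 (probability 0.41). The 2 tests of distance were added after the values had been seen. The nearest site to a start lay 1012 bp upstream of the zinc-finger gene Zfp114 and the farthest 1232948 bp downstream of that of Gata3.

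The sites were found on all 19 chromosomes and were mostly alone in their window. They made up 3.49% (chromosome 11) to 6% (chromosome 8) of the distal motif CAC sites of a chromosome and fell in 533 of 2260 windows of 1 Mb that held a classed site, 413 of them with 1 site and 39 with 3 or more. Whether these counts differ from an even scatter was not tested. Counting classed sites of every kind, the share lacking Stag2 was high in 4 adjacent windows of chromosome 5 from 126000001 to 130000000, at 43.8%, 54.2%, 50% and 44.8%, where 0, 0, 4 and 1 of the 706 sites lay. The largest number in 1 window was 7, at chr8:127000001-128000000, which held 19 distal motif CAC sites, and 6 of the 7 lay in or just upstream of Disc1. Disc1 encodes a scaffold protein studied mainly in neurons. The 6 sites follow in genome order, again with the motif in capitals, to show that they are no copies of one another.
Disc1 (chr8:127558702-127558760, - strand): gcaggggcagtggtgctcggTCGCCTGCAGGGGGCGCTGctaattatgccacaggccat
Disc1 (chr8:127576066-127576124, + strand): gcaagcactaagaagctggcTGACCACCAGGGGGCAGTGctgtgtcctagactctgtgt
Disc1 (chr8:127590924-127590982, + strand): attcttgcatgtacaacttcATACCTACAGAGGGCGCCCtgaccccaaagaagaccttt
Disc1 (chr8:127640693-127640751, + strand): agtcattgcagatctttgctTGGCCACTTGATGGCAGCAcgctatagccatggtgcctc
Disc1 (chr8:127652371-127652429, + strand): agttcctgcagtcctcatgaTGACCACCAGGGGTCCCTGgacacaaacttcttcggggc
Disc1 (chr8:127689860-127689918, + strand): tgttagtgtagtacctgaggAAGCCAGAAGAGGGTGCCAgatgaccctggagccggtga
The 2 sites upstream had 467 and 273 CTCF fragments with Rad21 at 14.5-fold and 5.06-fold over local background, and the 4 intron sites had 169, 226, 380 and 444 CTCF fragments with 61, 40, 49 and 68 Rad21 fragments. All 6 were above the class median of 76 in CTCF and of 28 in Rad21, and 3 had Top2b. Their 6 motifs differed, and 5 of them pointed along the gene. All 4 distal motif CAC sites in the gene body lacked Stag2. Of the 9 classed sites of any kind from 25 kb before the gene to 25 kb past it, 8 had neither Stag1 nor Stag2. The exception was a TAD anchor in an intron, with 457 CTCF and 303 Rad21 fragments and all 3 flags. This cluster was picked for its count and carries no test.

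The annotated unit with the most members, Gm20388, held 5 of its 95 distal motif CAC sites over 4434882 bases that also span other genes, and the autophagy gene Atg7 held 3 of its 6, with 58, 294 and 169 CTCF and 49, 146 and 40 Rad21 fragments. In all, 368 sites lay in 351 protein-coding genes, 15 of which held more than 1. The closest pair lay 1015 bp apart in an intron of Frmd6, with 55 and 84 CTCF fragments and 21 and 23 Rad21 fragments. Near Fndc1 there were 3 sites, the third in an intron with 256 CTCF and 59 Rad21 fragments.

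The 3 short lists of liver genes used here held 2 of the sites, numbers too small to set their share apart from that of other genes. Of all 22238 protein-coding gene names, 351 (1.58%) held a site lacking Stag2 and 4678 (21%) a distal motif CAC site. Of 32 hepatocyte transcription factor genes, 1 held a site lacking Stag2, and 11 held a distal motif CAC site of any kind. The site lay in an intron of Ppara, the nuclear receptor of fatty acid oxidation, with 201 CTCF and 43 Rad21 fragments. Of 48 plasma protein genes found in the annotation, 0 held one and 9 held a distal motif CAC site. Of 47 metabolic and drug enzyme genes, only Cpt1a, which carries fatty acids into mitochondria, held one, in an intron with 116 and 31 fragments, and 15 held a distal motif CAC site. Of 44 neuronal adhesion, channel and synapse genes, 2 held one and 34 a distal motif CAC site. These were Nlgn1, a synaptic adhesion gene, with 51 and 19 fragments, and Cntnap5a with 47 and 21 and a Stag1 flag. As a share of sites, these lists held 0.142%, 0%, 0.142% and 0.283% of sites lacking Stag2 and 0.273%, 0.0733%, 0.16% and 0.726% of all distal motif CAC sites.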

How the data were processed

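CTCF was measured in 4 and Rad21 in 3 male liver ChIP-seq libraries. The authors merged the reads of each factor, mapped them uniquely with Bowtie2 to mm9, called peaks with MACS2 and dropped blacklisted regions. The deposited lists give each peak a score, a fold ratio over local background and a −log10 p-value and q-value, and the class list gives flags and the FIMO log-odds score of the best CTCF motif. The study's methods give read depth as a range over samples, not for each library, and it was not used here. From fold and −log10 p-value the fragments at each summit were solved, and came out whole (within 0.05) at 76680 of 76683 CTCF and 67367 of 67369 Rad21 peaks. A site took the strongest Rad21 peak overlapping it by 1 bp. Motif positions were recovered by rescoring with the same matrix. Starts, 45974 in all, and gene models came from GENCODE on NCBIM37. Distributions were compared across sites by two-sided Kolmogorov-Smirnov tests (scipy 1.17.1, large-sample p), adjusted by Benjamini-Hochberg over 23 comparisons, 8 of them added after values were seen, with the probability that a member exceeds a comparison site (ties split) as the size. P values then measure the spread between sites, not livers. Within 10 bins of strength, a stratified rank-sum test was used. Shares carry Wilson or Newcombe 95% intervals, and 10 of the 16 share differences were also added after values were seen (neighbours within 1 kb, Rad21 summit within 100 bp, CpG at positions 15 and 16, a second motif match, and the intergenic and lone-site Stag1 shares). The methods were tested on simulated data. Members, comparison classes and gene lists were chosen with earlier results of these data known. Named sites were, by rule, those with the most CTCF or the most or fewest Rad21 fragments, the highest or lowest motif score, the strongest for each combination of flags, the closest pair, the nearest and farthest from a start, and those in listed genes or the 3 genes with the most members. The repeated motifs, the Disc1 cluster and the third Fndc1 site were chosen after their values were seen.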

Additional observations from a re-analysis of the deposited data

How the results depend on the processing

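No paired analysis was possible because the lists are pooled over libraries and hold no value per replicate. The number of sites was 706, and 604 to 722 under other distances, starts or chromosomes. Of 147 alternatives over 41 results, 127 kept the direction and the side of the threshold. CTCF against sites with Stag2 only (probability 0.468) was 0.463 without chromosome 5 and 0.461 without crowded sites, both past the threshold, and turned to 0.504 within Rad21 bins. Within CTCF bins, the motif score against sites with both subunits turned to 0.563, CpG counts passed the threshold at 0.546, distance to a start at 0.449 and, against sites with Stag2 only, distance between summits at 0.471. Without bins, CpG counts within the motif alone passed at 0.543. Distance to the nearest classed site against sites with Stag2 only was 0.501 at 5 kb and 0.503 with stricter peaks, both past the threshold, and turned to 0.492 within CTCF bins. With CTCF scores of at least 200 and Rad21 scores of at least 50, the motif score against Stag2 only no longer passed (0.528), nor did distance to an anchor by Stag1 (0.558), while CTCF by Stag1 did (0.41). In the same setting the intron share turned to −1.1 points, CpG at positions 15 and 16 against Stag2 only was 3.41 and a second motif match against both subunits 2.19 points, intervals including 0, and against Stag2 only −4.61 points, interval excluding 0. A second match was one scoring at least 8. Its main values were 4.18 points (1.2 to 7.45) against both subunits and −1.89 (−5.41 to 1.83) against Stag2 only. The main value for CpG against Stag2 only was 4.01 points (0.0346 to 8.1). The intergenic share by Stag1, 11.5 points in the main setting (2.28 to 20.3), was 7.85 points at 5 kb and 10.3 with stricter peaks, intervals including 0. The causes were not tested. The pooled counts limit what can be said of any 1 site, since no spread between livers is known.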
